A study of Mus musculus with 6 samples.

Results

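The haematopoietic growth factor receptors and the growth factor Csf1 were examined in 6 Affymetrix HT MG-430PM arrays of sorted eosinophils, 3 from Klf3-/- mice and 3 from WT mice. The genes were Il5ra, Il3ra, Csf2ra, Csf2rb, Csf2rb2, Csf1r, Csf3r and Csf1, and their probe sets were those whose only platform symbol was one of these names. Of these 8 genes, 7 had a probe set by that rule, out of 17097 genes on the array, and they held 12 probe sets. Il5ra, Il3ra, Csf2rb2, Csf1r and Csf3r had 1 each, Csf2rb had 3 and Csf1 had 4, whereas Csf2ra was not analysed here. All mice were male FVB/NJ littermates aged 12 weeks and housed at 22 °C. Klf3-/- mice carry a neomycin cassette in Klf3 in every cell of the body and came from crosses of heterozygous parents, so the knockout is not confined to eosinophils. WT mice had no other difference named by the labels. Cells were taken from the stromal vascular fraction (SVF) of inguinal subcutaneous fat by a gate on high side scatter and on CD45, CD11b, F4/80 and Siglec-F, 1 array per mouse.

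IL-5, IL-3 and GM-CSF each bind an alpha chain of their own, encoded by Il5ra, Il3ra and Csf2ra. The alpha chains pair with the common beta chain Csf2rb, which carries the JAK2 and STAT5 signal, and the mouse has a further beta chain, Csf2rb2, that serves IL-3 alone. IL-5 signalling drives the production and survival of eosinophils. Csf1r is the receptor tyrosine kinase for M-CSF, the product of Csf1, and maintains macrophages, while Csf3r is the G-CSF receptor that neutrophils depend on. KLF3 is a zinc finger protein that binds CACCC boxes and mostly represses transcription.

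The deposited values were linear intensities whose array medians differed by up to 1.94-fold, so levels below are log2 intensities quantile-normalised between arrays. Genotypes were compared with limma, with Benjamini-Hochberg adjustment over all 45037 probe sets. The p-values measure the spread between these mice, and the number of mice limits the precision. They are from a fit of genotype alone, which leaves out the pairing of mice by replicate number. The 95th percentile of 44 olfactory receptor probe sets, 5.10 log2 units, served as the background level. Klf3 itself had 6 probe sets. All Klf3-/- arrays lay above all WT arrays in 5 of them (log2 fold changes of 0.69 to 2.83) and below in 1 (−1.01, a lower signal in Klf3-/-), and the position of these probes relative to the cassette was not looked up. The sort was also set against its label. Siglecf, which encodes the surface marker used in the gate, averaged 4.15 ± 0.11 (SD) in 3 Klf3-/- arrays and 4.58 ± 0.21 in 3 WT arrays, below the background level. Of 12 measured eosinophil markers 6 lay above that level on average, and Ccr3, Epx and Prg2 did not. Among the 6, Prg3 (mean of 5.20 over all arrays), Galr3 (5.14) and Ltc4s (5.13) were only just above it. The rest were Adgre1, Itgam and Adgre4, and Adgre1 was also counted as a macrophage marker. All 19 measured macrophage markers lay above the background level.

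Promoter sequence is given for 3 of the genes to show which letters of a KLF binding box stand before them. They are the beta chain Csf2rb2, the alpha chain Il3ra and the ligand Csf1, which are taken up below. The windows hold the 250 bases before the RefSeq start in build GRCm38.p6, on the gene's strand, at chr15:78305722-78305971 (minus strand) for Csf2rb2, chr14:14346245-14346494 (plus strand) for Il3ra and chr3:107760470-107760719 (minus strand) for Csf1. Capitals mark CACCC or its complement GGGTG, and GAGGAA or its complement TTCCTC, the core that the myeloid factor PU.1 binds.
Csf2rb2: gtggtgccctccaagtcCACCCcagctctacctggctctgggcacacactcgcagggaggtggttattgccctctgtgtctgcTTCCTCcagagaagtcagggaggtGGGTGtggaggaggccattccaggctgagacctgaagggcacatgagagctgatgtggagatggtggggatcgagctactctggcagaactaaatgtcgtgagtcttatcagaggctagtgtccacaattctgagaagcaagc
Il3ra: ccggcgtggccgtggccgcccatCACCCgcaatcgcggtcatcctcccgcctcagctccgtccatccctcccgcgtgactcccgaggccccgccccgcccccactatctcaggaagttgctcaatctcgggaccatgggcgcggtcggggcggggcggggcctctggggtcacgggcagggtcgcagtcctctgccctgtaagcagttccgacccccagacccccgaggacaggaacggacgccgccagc
Csf1: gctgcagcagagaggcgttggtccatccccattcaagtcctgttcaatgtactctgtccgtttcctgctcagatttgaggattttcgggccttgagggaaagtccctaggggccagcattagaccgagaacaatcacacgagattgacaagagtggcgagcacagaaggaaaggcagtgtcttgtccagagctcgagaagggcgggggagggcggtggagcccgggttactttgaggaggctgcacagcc

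Csf2rb2 held 2 CACCC matches, 233 and 143 bases before its start, and 1 GAGGAA match, 167 bases before it. Il3ra held 1 CACCC match, 227 bases before its start, and Csf1 held neither motif. Il5ra had 1 CACCC match, Csf3r had 4 with 1 GAGGAA match, and Csf2ra, whose expression was not analysed here, had 3 with 2 GAGGAA matches. Windows for Csf2rb and Csf1r are not reported here. No CACCC match overlapped a GAGGAA match in these windows. CACCC occurred on either strand in 52.0% of 32851 mouse promoter windows of this length and GAGGAA in 23.3%. There were 2 or more matches in 21.1% of windows for CACCC and in 3.54% for GAGGAA. These are matches of letters and were not tested as binding sites. Csf2rb and Csf2rb2 are neighbours on chromosome 15 with 0 annotated genes between them.

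None of the 12 probe sets passed the adjusted test, and nor did any of the 45037 on the array (0%). The adjusted p-values of the 12 ranged between 0.868 and 0.997. The unadjusted p was under 0.05 for 1 of the 12 with a higher and 1 with a lower level in Klf3-/-, where 3.10% of all probe sets were higher and 2.39% were lower by the same cut. Of all 2475 probe sets past that cut 56.5% were higher in Klf3-/-, against 94.9% of 1212 on the deposited scale. All Klf3-/- arrays lay above all WT arrays for 1 of the 12 and below them for 3, against 4.49% and 6.51% of all probe sets. The 3 belonged to the beta chains and the 1 to Csf1. By brightest probe set, 0 of the 7 genes passed the unadjusted cut, against 3.61% of all genes higher and 2.47% lower. Of the 7 genes, 0 lay wholly above WT and 2 wholly below, against 4.84% and 6.55% of all genes. In the deposited values, before normalisation, the genotypes overlapped for all 12. The median log2 fold change of the 12 was 0.14, and that of all probe sets was −0.03. In bulk arrays fewer cells of a type and less RNA per cell cannot be told apart.

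**Figure D1:**
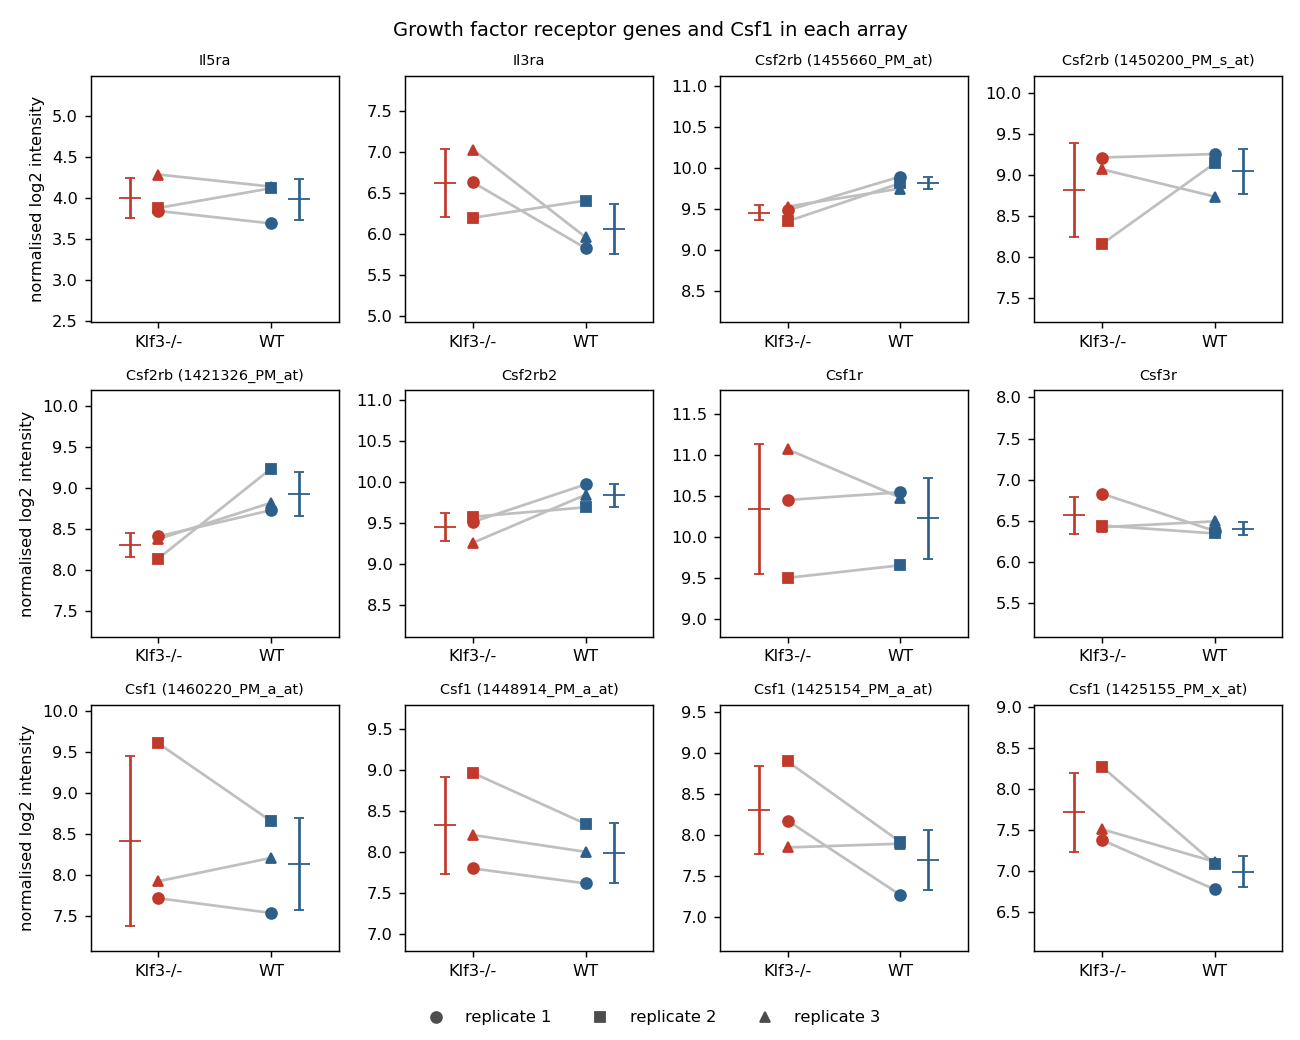
Normalised log2 intensity (vertical axes, each spanning 3 log2 units) of the 12 probe sets in Klf3-/- arrays (red, left) and WT arrays (blue, right). Symbols are single mice, grey lines join arrays of the same replicate number, and bars show the mean ± SD (n = 3). Both Csf2rb probe sets without shared probes and Csf2rb2 show no overlap between genotypes, with Klf3-/- below WT, while Csf1 is highest in replicate 2 of Klf3-/-.

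Il5ra, the IL-5 binding chain, read 3.84, 3.88 and 4.28 log2 units in Klf3-/- mice 1 to 3, against 3.69, 4.12 and 4.14 in WT mice 1 to 3. All 6 values were below the background level, so Il5ra was the only measured receptor gene without a signal above olfactory receptor probe sets, and the genotypes overlapped. The estimated log2 fold change was 0.02 ± 0.22 (SE, 95% interval −0.50 to 0.54, limma adjusted p = 0.997). Its sign turned without Klf3-/- mouse 3 (−0.12) or WT mouse 1 (−0.13).

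Il3ra, the IL-3 binding chain, read 6.63, 6.20 and 7.03 log2 units in Klf3-/- mice 1 to 3, against 5.83, 6.41 and 5.97 in WT. Klf3-/- mice 1 and 3 exceeded every WT mouse, and Klf3-/- mouse 2 lay below WT mouse 2. The log2 fold change was 0.55 ± 0.27 (SE, 95% interval −0.09 to 1.20, limma adjusted p = 0.910), the largest among the 7 genes when each is taken by its brightest probe set. The deposited intensities were 110, 107 and 99.9 in Klf3-/- and 48.8, 117 and 42.3 in WT, so the 3 Klf3-/- values were close together and WT mouse 2 was the highest of all 6. Without Klf3-/- mouse 2 the log2 fold change was 0.76 and without Klf3-/- mouse 3 it was 0.35.

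The common beta chain Csf2rb was measured well above background. Probe set 1455660_PM_at read 9.48, 9.35 and 9.53 log2 units in Klf3-/- mice 1 to 3, against 9.89, 9.81 and 9.75 in WT. All 3 Klf3-/- arrays lay below all 3 WT arrays, and the Klf3-/- mouse was lower in every pair of the same number, by differences of −0.41, −0.46 and −0.22. The log2 fold change was −0.36 ± 0.17 (SE, 95% interval −0.76 to 0.03, limma adjusted p = 0.910). The means were 9.45 ± 0.09 (SD) in the 3 Klf3-/- arrays and 9.82 ± 0.07 in the 3 WT arrays. Probe set 1421326_PM_at read 8.41, 8.14 and 8.38 in Klf3-/- mice, against 8.73, 9.24 and 8.82 in WT. The groups were again apart, with pair differences of −0.32, −1.10 and −0.44. Its log2 fold change of −0.62 ± 0.21 (SE, 95% interval −1.11 to −0.13) had an unadjusted p of 0.021 and a limma adjusted p of 0.868.

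The remaining Csf2rb probe set, 1450200_PM_s_at, was designed to the same transcript record as 1421326_PM_at, but its suffix marks probes shared by several transcripts. It read 9.21, 8.16 and 9.06 in Klf3-/- mice 1 to 3, against 9.25, 9.14 and 8.73 in WT. Only Klf3-/- mouse 2 was well below the others, and the groups overlapped. Its log2 fold change was −0.23 ± 0.32 (SE, limma adjusted p = 0.966) and was 0.10 without Klf3-/- mouse 2. Thus 1 transcript record gave values that separated the genotypes in 1 probe set and not in the other.

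Csf2rb2, the beta chain used by IL-3 in the mouse, read 9.51, 9.57 and 9.26 log2 units in Klf3-/- mice 1 to 3, against 9.97, 9.69 and 9.84 in WT. No Klf3-/- array reached the lowest WT array, and the narrowest gap was between the mice numbered 2 (−0.12). In the fit the log2 fold change was −0.39 ± 0.19 (SE, 95% interval −0.83 to 0.05, limma adjusted p = 0.910). Csf2rb and Csf2rb2 are known to be close copies, and cross-hybridisation between them was not tested. For 3 of these 4 beta chain probe sets the exact two-sided permutation p was 0.1, the smallest that 3 against 3 arrays allow. Any probe set without overlap has this p, so it adds nothing to the separation already given. On the deposited intensities all 4 overlapped, with log2 fold changes of −0.04 to −0.41. After centring on each array's median, 2 of the 12 probe sets in all were apart, 1 higher and 1 lower in Klf3-/-. All 4 beta chain probe sets were lower on that scale, so at most 1 of them was apart.

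**Figure D2:**
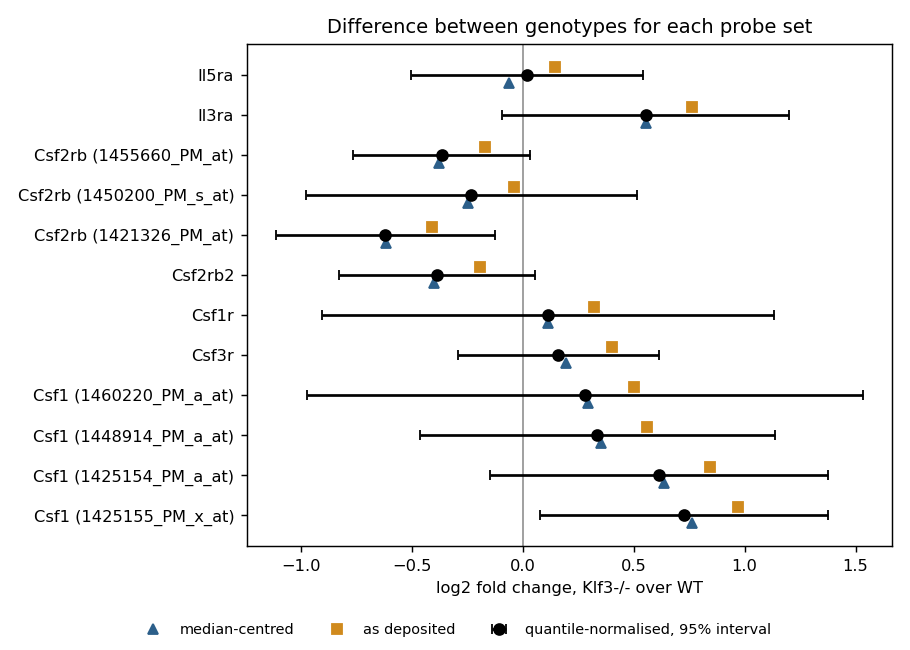
Log2 fold change of Klf3-/- over WT (horizontal axis) for each of the 12 probe sets. Black circles with bars are quantile-normalised values with their 95% limma interval, squares are values as deposited and triangles are median-centred values. The 4 beta chain probe sets lie left of 0 and the 4 Csf1 probe sets right of 0 on all scales, and only Csf2rb 1421326_PM_at and Csf1 1425155_PM_x_at have intervals that leave out 0.

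Csf1r, the M-CSF receptor, read 10.45, 9.50 and 11.07 log2 units in Klf3-/- mice 1 to 3, against 10.55, 9.66 and 10.48 in WT. Mouse 2 was the lowest of its genotype in both groups, and the spread within genotypes exceeded the difference between them. The log2 fold change was 0.11 ± 0.43 (SE, 95% interval −0.91 to 1.13, limma adjusted p = 0.988). It was −0.25 without Klf3-/- mouse 3, −0.17 without WT mouse 2 and 0.53 without Klf3-/- mouse 2. The mean level of the macrophage markers was 9.13, 9.54 and 10.46 in Klf3-/- and 9.45, 8.83 and 9.53 in WT. Klf3-/- mouse 3 was thus the highest array for both Csf1r and these markers, and their part in the Csf1r values was not tested.

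Csf3r, the G-CSF receptor, read 6.83, 6.44 and 6.42 log2 units in Klf3-/- mice 1 to 3, against 6.37, 6.34 and 6.49 in WT. Klf3-/- mouse 1 was the highest array and the other 5 lay close together. Its log2 fold change was 0.16 ± 0.19 (SE, 95% interval −0.29 to 0.61, limma adjusted p = 0.962), and it was 0.03 without Klf3-/- mouse 1. The neutrophil markers had their highest mean level in the same array (6.92), against 6.25 and 6.52 in the other Klf3-/- mice and 5.52 to 6.70 in WT. Their summed intensity, by contrast, was highest in Klf3-/- mouse 3 (6876, against 2780 in Klf3-/- mouse 1), where Csf3r read 6.42. Their part in the Csf3r values was not tested.

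Csf1, which encodes M-CSF, had 4 probe sets designed to 2 transcript records. The brightest, 1460220_PM_a_at, read 7.72, 9.60 and 7.92 log2 units in Klf3-/- mice 1 to 3, against 7.54, 8.65 and 8.21 in WT. Mouse 2 was the highest of both genotypes, most of all in Klf3-/-, and the groups overlapped. The log2 fold change was 0.28 ± 0.53 (SE, 95% interval −0.97 to 1.53, limma adjusted p = 0.973). Its sign turned without Klf3-/- mouse 2 (−0.31) and without WT mouse 1 (−0.02).

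Probe set 1448914_PM_a_at, from the same record, read 7.80, 8.96 and 8.21 in Klf3-/- and 7.62, 8.34 and 8.0 in WT. Klf3-/- was the higher of each pair, by 0.18, 0.62 and 0.21, but the groups overlapped and the log2 fold change was 0.34 ± 0.34 (SE, limma adjusted p = 0.954). It was 0.02 without Klf3-/- mouse 2. The other record gave larger differences. Probe set 1425154_PM_a_at read 8.17, 8.89 and 7.85 in Klf3-/- and 7.27, 7.91 and 7.89 in WT, where Klf3-/- mouse 3 fell among the WT mice. Its log2 fold change was 0.61 ± 0.32 (SE, limma adjusted p = 0.910), and it was 0.32 without Klf3-/- mouse 2.

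Probe set 1425155_PM_x_at read 7.38, 8.27 and 7.51 in Klf3-/- and 6.78, 7.09 and 7.11 in WT. Here alone among the Csf1 probe sets every Klf3-/- array exceeded every WT array. The suffix of this probe set marks probes that can cross-hybridise with other transcripts. Its log2 fold change was 0.73 ± 0.28 (SE, 95% interval 0.08 to 1.37), with an unadjusted p of 0.033 and a limma adjusted p of 0.868. It was 0.45 without Klf3-/- mouse 2. In the deposited intensities (184, 479 and 137 in Klf3-/-, 94.1, 194 and 87.8 in WT) WT mouse 2 exceeded Klf3-/- mice 1 and 3.

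Mouse 2 of each genotype was the lowest for Csf1r and the highest for 3 of the 4 Csf1 probe sets, and for 1425155_PM_x_at WT mouse 3 (7.11) was just above WT mouse 2 (7.09). Markers of other cells also set these 2 arrays apart. Basophil and mast cell markers had mean levels of 6.43, 8.71 and 5.85 in Klf3-/- mice 1 to 3 and 4.94, 7.88 and 5.98 in WT, and 9 of 11 were higher on average in Klf3-/-. Endothelial markers were lowest in the same arrays, at 8.38, 6.51 and 8.75 in Klf3-/- and 8.37, 7.04 and 9.27 in WT.

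Stromal fibroblast and preadipocyte markers had higher mean values in Klf3-/- for 17 of 19 genes, with a median log2 fold change of 0.95. Their summed intensity ranged between 25646 and 39865 in Klf3-/- and between 15294 and 24525 in WT, without overlap. Igfbp6, a secreted binder of insulin-like growth factors, averaged 9.88 ± 0.11 in Klf3-/- against 7.99 ± 0.17 in WT (SD, limma adjusted p = 0.200). The summed intensity of the macrophage markers ranged between 16964 and 45036 in Klf3-/- and between 12948 and 22572 in WT, and 15 of 19 had higher means in Klf3-/-. Basophil and mast cell markers summed to between 937 and 9101 in Klf3-/- and between 539 and 4575 in WT, and neutrophil markers to between 2196 and 6876 in Klf3-/- and between 1224 and 2458 in WT. The part of these markers in the Csf1 and receptor values was not tested.

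**Figure D3:**
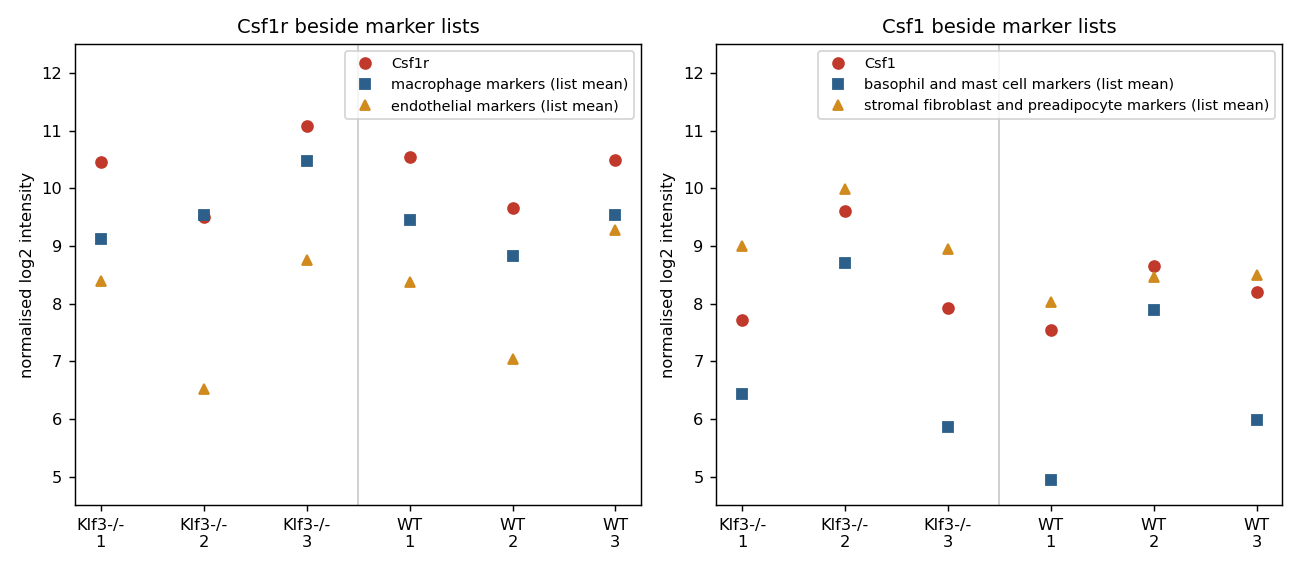
Normalised log2 intensity (vertical axis) in each array, Klf3-/- mice left of WT mice, of Csf1r beside the mean of the macrophage and endothelial markers (left panel) and of Csf1 (1460220_PM_a_at) beside the mean of the basophil and mast cell and of the stromal markers (right panel). Mouse 2 of each genotype is lowest for Csf1r and endothelial markers and highest for Csf1 and basophil and mast cell markers.

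The ligands of these receptors were mostly dim. Of 10 listed ligands 8 were measured, and the 3 above background were Kitl, Flt3l and Tslp. Il5, Il3, Csf2 and Csf3 were below it in all 6 arrays. The alternative Csf1r ligand Il34 was below it on average and above it in WT mouse 2 alone (5.58), so Csf1 was the only measured ligand of the chosen receptors whose mean level exceeded the background. Of the 8 measured ligands 4 had higher and 4 had lower means in Klf3-/-, and none passed the adjusted or the unadjusted test. Il34 averaged 4.44 ± 0.37 in Klf3-/- and 4.83 ± 0.65 in WT, and Tslp, an epithelial cytokine that acts on eosinophils and basophils, averaged 6.83 ± 0.91 in Klf3-/- against 6.09 ± 0.21 in WT (SD over 3 mice).

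The lists that follow take each gene by its brightest probe set, where 3.61% of 17097 genes were higher in Klf3-/- and 2.47% lower by the unadjusted cut, and 4.84% lay wholly above WT and 6.55% wholly below it. No gene of any list passed the adjusted test. Among 13 of 17 other haematopoietic cytokine receptors that were measured, 8 had higher and 5 lower means and the median log2 fold change was 0.05, beside −0.04 for all genes. Il10ra, the ligand-binding chain for IL-10, read 7.39, 6.94 and 6.59 in Klf3-/- and 8.21, 7.90 and 7.36 in WT, with Klf3-/- lower in each pair of the same number (log2 fold change −0.85 ± 0.30, SE, unadjusted p = 0.025, limma adjusted p = 0.868). Osmr, the oncostatin M receptor of stromal cells, averaged 7.92 ± 0.18 in Klf3-/- and 6.89 ± 1.32 in WT, and Il4ra, shared by IL-4 and IL-13, averaged 6.91 ± 0.34 in Klf3-/- against 6.48 ± 0.38 in WT (SD over 3 mice).

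Of 25 signalling proteins of these receptors 22 were measured, and 15 had lower and 7 higher means in Klf3-/- (median −0.11). None passed the unadjusted test, and 4 lay wholly below WT. On the deposited scale the list had a median of 0.08, beside 0.13 for all genes. Gab2, an adaptor downstream of the beta chain, read 8.01, 8.08 and 7.74 in Klf3-/- and 8.32, 8.50 and 8.23 in WT. Ptpn6, which encodes the inhibitory phosphatase SHP-1, averaged 9.57 ± 0.30 in Klf3-/- and 9.95 ± 0.14 in WT, and Inpp5d, which encodes the inhibitory lipid phosphatase SHIP-1, averaged 8.34 ± 0.30 in Klf3-/- against 8.84 ± 0.43 in WT (SD over 3 mice). The fourth was Grb2, an adaptor of many receptors, named after its values were seen (log2 fold change −0.35). The log2 fold changes of Gab2, Ptpn6 and Inpp5d were −0.41, −0.38 and −0.50, and their adjusted p-values in limma were all 0.910. These genes were named because they had the smallest p of the list, so their size does not describe the list. As deposited, all 4 overlapped WT.

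Of 15 genes listed as STAT5 targets 14 were measured, with lower means for 8 and higher for 6 (median −0.20). Whether STAT5 raises or lowers each of them was not looked up. Pim2, a survival kinase, read 7.12, 7.13 and 7.08 in Klf3-/- and 7.50, 7.57 and 7.37 in WT, without overlap (log2 fold change −0.37 ± 0.17, SE, limma adjusted p = 0.910). Socs3 and Socs1, which encode feedback inhibitors of cytokine receptors, stood on opposite sides, with log2 fold changes of 0.56 and −0.35. None of the 14 passed the unadjusted test, and Pim2 alone lay wholly below WT. On the deposited scale, which moves all genes up together, the list had a median of 0.02 and all genes had 0.13. Pim2 overlapped on that scale. The part of the cell type markers in these values was not tested.

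Of 17 genes listed as early response genes of M-CSF receptor signalling 16 were measured, with higher means for 12 and lower for 4 (median 0.28). Whether M-CSF receptor signalling set their levels in these cells was not tested. Spry2, a feedback inhibitor of receptor tyrosine kinases, read 7.29, 7.76 and 7.42 in Klf3-/- and 5.82, 6.30 and 6.76 in WT. All Klf3-/- arrays exceeded all WT arrays (log2 fold change 1.20 ± 0.28, SE, unadjusted p = 0.00336, limma adjusted p = 0.736). Ier2, an immediate early gene, also lay wholly above WT (8.97 ± 0.10 in Klf3-/- and 8.59 ± 0.19 in WT), and Etv5, an ETS factor induced by growth factors, wholly below (6.36 ± 0.19 in Klf3-/- against 6.77 ± 0.20 in WT, SD over 3 mice). As deposited, Ier2 and Etv5 overlapped WT, while Spry2 still lay wholly above it. The part of the stromal markers, whose summed intensity did not overlap between genotypes, in these values was not tested.

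Among myeloid transcription factors 14 of 16 were measured, with higher means for 8 and lower for 6 (median 0.18). Cebpa, which directs granulocyte and macrophage development and regulates Csf3r, averaged 8.19 ± 0.21 in Klf3-/- and 8.95 ± 0.47 in WT. This was a log2 fold change of −0.76 with an unadjusted p of 0.027 and a limma adjusted p of 0.868. Runx1, a regulator of blood development, read 8.47, 8.51 and 8.86 in Klf3-/- and 8.39, 8.25 and 7.48 in WT. It lay wholly above WT with a log2 fold change of 0.57, but overlapped as deposited. Irf8, which directs monocyte and dendritic cell development, read 10.28, 9.93 and 9.63 in Klf3-/- and 10.31, 11.41 and 10.26 in WT. Its log2 fold change was −0.71 (limma adjusted p = 0.910), the groups overlapped, and WT mouse 2 was the highest array. Monocyte and dendritic cell markers had lower means in Klf3-/- for 9 of 12 (median −0.44). Their mean level was 9.23, 9.12 and 8.93 in Klf3-/- and 9.29, 10.05 and 9.22 in WT, also highest in WT mouse 2.

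**Figure D4:**
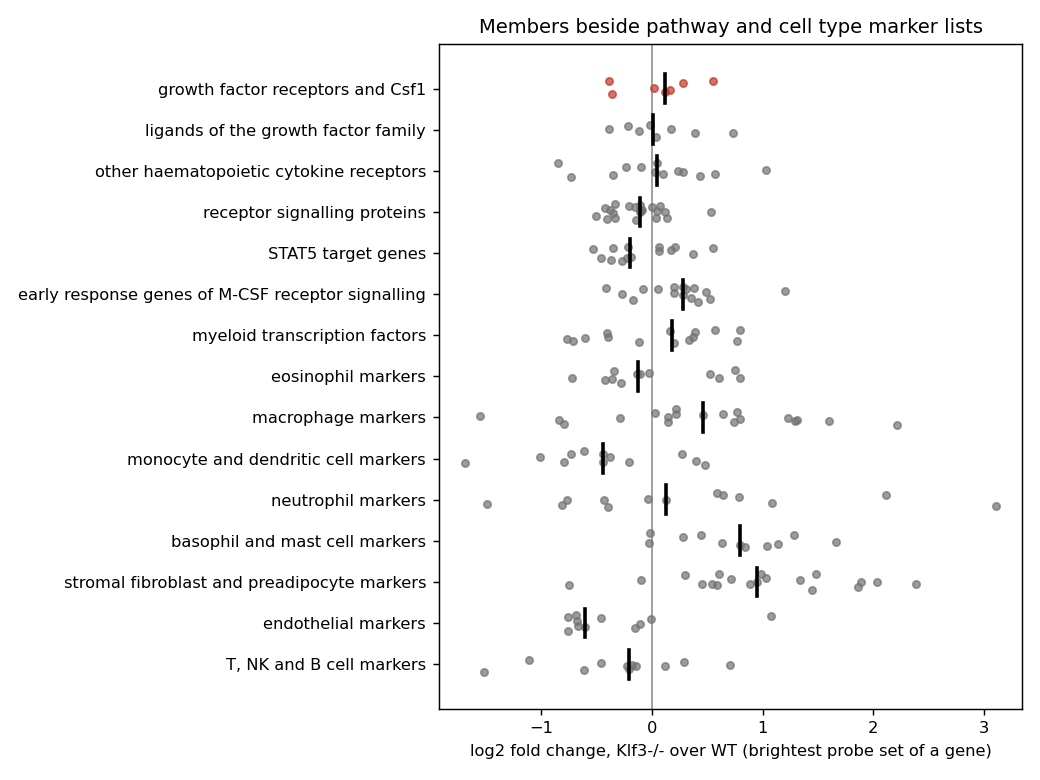
Log2 fold change of Klf3-/- over WT (horizontal axis) for each gene of the lists (rows), by its brightest probe set. Dots are genes and black bars are list medians. The 7 chosen genes (red, the receptors and Csf1) lie between −0.39 and 0.55.

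For each receptor above background and for Csf1, the 3 genes with the most similar normalised pattern over the 6 arrays were taken. They came from 11113 genes above background, by Pearson r and as a description. For Csf2rb they were Bmyc, Naip2 and Hspa4 (r of 0.98 to 0.99), and for Csf2rb2 Ddx11, Aym1 and Rtel1 (0.98 to 1.00). Lists this short cannot show whether the beta chains share similar genes. Swi5, Cldn4 and Zbtb42 were closest to Il3ra (0.98 to 0.99), and Eml2, Mpp7 and Atp6v0e2 to Csf1r (0.99 to 1.00). Ralgapb, Epdr1 and Pan2 were closest to Csf3r (0.95 to 0.96) and Tpp2, Copa and Kansl1l to Csf1 (0.98 to 0.99). All points come from the same 6 arrays, which also differ in the cell type markers given above, and these correlations were not tested.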

How the data were processed

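Eosinophils sorted from the subcut SVF of 6 mice were hybridised to 1 array each. RNA was amplified by the authors with a 3' IVT Pico Kit. The arrays were then analysed by them in Partek Genomics Suite, with RMA named in a legend. The deposited intensity of each of 45037 probe sets is on a linear scale and not equal in distribution between arrays. Values were converted to log2, quantile-normalised and fitted with limma 3.58.1 in R 4.3.3 (lmFit and eBayes, genotype only, threshold 0.05). The methods name a two-way ANOVA and only its genotype factor is clear. Probe sets were named through the platform annotation, where 28898 had 1 symbol, 551 several and 15588 none. The brightest probe set stood for a gene where 1 value was needed. Members and lists were chosen with earlier results of these data known. Of each list, the 3 genes with the smallest p were eligible to be named, and of marker lists also the 2 brightest. Eosinophil markers were named more fully to describe the sort. The fit was tested on simulated data. Figures were drawn with matplotlib 3.10.9.

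After subtracting genotype means, arrays that share a replicate number correlated at r = 0.17, 0.23 and 0.21, and the other pairs at −0.18 to −0.01, so the numbers were taken to pair the mice. The labels call the mice litter-matched. The replicate number as a block was an alternative, beside leaving out each array, other scalings, trend and robust fitting, array weights, ANOVA and filters on dim probe sets. Every SE, interval and limma p-value above is from the fit without the block. By brightest probe set, the block made the SE smaller for Csf1r (0.23 against 0.43), Csf1 (0.28 against 0.53) and Il5ra (0.19 against 0.22). It made the SE larger for Il3ra, Csf2rb, Csf2rb2 and Csf3r.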

Additional observations from a re-analysis of the deposited data

How the results depend on the processing

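No member passed the adjusted test under any alternative (lowest adjusted p 0.655), and the replicate block changed no call, with 2 of the 12 probe sets at an unadjusted p under 0.05 (1 higher and 1 lower). Of 97 fold changes recomputed for the 7 genes, 89 kept their direction. Il5ra had −0.064 after median centring and ranged between −0.13 and 0.10 when 1 array was left out. Csf1r had −0.037 with array weights and ranged between −0.25 and 0.53 without 1 array, and Csf1 ranged between −0.31 and 0.63. The 2 probe sets at an unadjusted p under 0.05 became 0 as deposited, 1 after median centring, 6 with array weights and 1 to 3 without 1 array (1 without Klf3-/- mouse 2 or without any single WT mouse). The 4 that did not overlap became 0 as deposited and 2 after median centring (1 higher and 1 lower in Klf3-/-). Over all probe sets 2475 had an unadjusted p under 0.05 (56.5% higher in Klf3-/-), against 1212 as deposited (94.9% higher), 1517 of those above background and 1041 with 1 probe set per gene, where fewer were tested. With 1-way ANOVA 40.2% of the calls were higher. The median log2 fold change of all probe sets was 0.13 as deposited. The cause of these shifts was not tested.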
